A study of Mus musculus with 6 samples.

Results

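The genes that carry a cell through DNA replication and mitosis were compared between cultured cells of the embryonic mouse stomach, the intestine, and an intestine made to express the transcription factor gene Barx1. The members are 50 listed genes, 34 that act in mitosis and the run-up to it and 16 that act in S phase, and each was read from its brightest probe set over the 6 arrays. Of these, 48 were measured among the 12393 genes of the arrays, 32 mitotic and all 16 of S phase. The cyclin B gene Ccnb1 and the chromosomal passenger gene Cdca8 had no probe set to their name in the annotation used here and were not analysed. By group means, the 32 mitotic genes stood highest in stomach, lowest in intestine and in between in Barx1 intestine. That order held for 5 of the 16 S phase genes and for 24.9% of all genes. At an adjusted p under 0.05 by limma, all 32 mitotic genes were higher in stomach than in intestine. Of the S phase genes 4 were higher and 1 lower, beside 8.86% and 8.09% of all genes.

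All embryos were of the C57BL/6 strain and were taken at embryonic day 13.5. The stomach and intestine controls carried Rosa26+/Barx1 or Bapx1+/Cre, so each control embryo had an allele without its partner, and the labels do not say which. The Barx1 intestine came from Rosa26+/Barx1;Bapx1+/Cre embryos, in which Cre made from the Bapx1 locus, a gene of the gut mesenchyme, switches on Barx1 at the Rosa26 locus. Gut tissue was digested with proteases to thin out the endoderm, and the remaining cells grew for 3 days in medium with 20% serum before total RNA was taken, so the values describe dividing cells in culture rather than the organ. Each group had 2 samples that the labels call biological replicates. The labels do not say how many embryos went into a culture, and p-values measure only the spread between these samples.

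A dividing cell copies its DNA in S phase and separates the copies in mitosis. Before S phase the Mcm helicase is loaded at origins, and E2F transcription factors drive its genes together with those for nucleotide supply. The mitotic genes peak later, when the MuvB core complex binds with B-Myb and FoxM1 to an element named CHR (cell cycle genes homology region), often near CCAAT boxes bound by NF-Y. In resting cells MuvB joins Rb-related pocket proteins and E2F in the DREAM complex, which represses both classes. In the embryonic gut wall, growth of the mesenchyme depends on such division, and division usually slows as smooth muscle matures.

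On the log2 scale the stomach arrays gave 9.82 and 9.79 for Barx1 itself and the control intestine arrays 5.13 and 4.93. The Barx1 intestine arrays gave 8.66 and 8.79, above control intestine as their label of overexpression says. The labels do not say how they should stand against stomach. Of the mesenchymal markers, Acta2 (smooth muscle actin) read 14.55 to 14.61 and Vim (vimentin) 14.02 to 14.14 on all arrays. Others were dim in some groups: Myocd, a coactivator of smooth muscle genes, read 6.34 to 6.41 in both intestine groups, and Foxf2, a transcription factor of the gut mesenchyme, 6.28 and 6.51 in stomach. Epithelial markers ranged widely. Cdx2, a marker of intestinal epithelium, read 5.10 to 5.40 on all arrays, not far above the lower quartiles of the arrays (4.72 to 4.76). The keratin genes Krt18 and Krt8 read 11.31 to 13.03 and 10.12 to 13.25. The mean level of 21 endoderm epithelium markers was 6.41 to 8.13 over the arrays. The array medians were 6.93 to 6.98, and with 2 arrays a group the precision of each value is limited by their number. Between the 2 replicates of a group, the members differed by a median of 0.04 (stomach), 0.06 (Barx1 intestine) and 0.08 (intestine). Tyms, the thymidylate synthase gene, had a mean of 4.80 and was the only measured member below the array medians, so it was not shown to be above background.

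The promoters of the members are shown first because the classes differ in the motifs they hold, a feature that the choice of genes did not use. RefSeq promoter windows of build GRCm38.p6, from 250 bases before to 50 after the annotated start, were matched for 41 of the 48 measured members, 28 mitotic and 13 of S phase. Motifs were searched as letters on both strands: the CCAAT box by its own letters, CHR as TTTGAA or TTCGAA, and E2F as TTTCCCGC, TTTGGCGC or TTTCGCGC. One form of CHR, TTCGAA, reads the same on both strands, and E2F matches on opposite strands can overlap each other. The next lines give the 160 bases before the start of 4 mitotic and 2 S phase genes, 5′ to 3′ along the strand of the gene, with matches in capitals. Cdk1 is the kinase that drives entry into mitosis, Cdc20 an activator of the anaphase-promoting complex, Kif11 the motor that pushes spindle poles apart, Ube2c a ubiquitin-conjugating enzyme of that complex, Mcm6 a helicase subunit and Rrm1 a subunit of ribonucleotide reductase. They lie at chr10:69352913-69353072 (minus strand), chr4:118437344-118437503 (minus strand), chr19:37376222-37376381 (plus strand), chr2:164769769-164769928 (plus strand), chr1:128359706-128359865 (minus strand) and chr7:102441535-102441694 (plus strand).
Cdk1: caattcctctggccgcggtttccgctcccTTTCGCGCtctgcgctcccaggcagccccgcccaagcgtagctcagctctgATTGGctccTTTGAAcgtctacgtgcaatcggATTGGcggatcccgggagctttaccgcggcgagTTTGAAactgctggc
Cdc20: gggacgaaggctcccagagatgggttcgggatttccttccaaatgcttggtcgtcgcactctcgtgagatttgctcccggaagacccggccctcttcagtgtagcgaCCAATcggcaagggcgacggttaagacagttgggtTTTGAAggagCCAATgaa
Kif11: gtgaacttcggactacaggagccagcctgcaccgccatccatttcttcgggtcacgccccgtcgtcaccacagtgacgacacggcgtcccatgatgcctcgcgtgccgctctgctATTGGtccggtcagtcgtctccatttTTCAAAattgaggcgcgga
Ube2c: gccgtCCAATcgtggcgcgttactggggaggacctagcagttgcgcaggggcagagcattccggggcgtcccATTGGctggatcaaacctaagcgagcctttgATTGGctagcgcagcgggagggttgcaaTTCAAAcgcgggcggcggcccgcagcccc
Mcm6: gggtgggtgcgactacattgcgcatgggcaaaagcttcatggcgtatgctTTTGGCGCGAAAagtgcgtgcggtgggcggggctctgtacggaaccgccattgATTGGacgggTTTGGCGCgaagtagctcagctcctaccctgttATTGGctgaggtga
Rrm1: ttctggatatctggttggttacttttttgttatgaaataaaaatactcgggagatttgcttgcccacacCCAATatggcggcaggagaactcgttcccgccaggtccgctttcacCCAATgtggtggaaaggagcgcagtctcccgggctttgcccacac

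The 4 mitotic promoters printed each hold at least 1 CHR match close to the start (TTTGAA, or TTCAAA where it lies on the other strand) with a CCAAT or its reverse, ATTGG, upstream, whereas the Mcm6 promoter holds E2F and CCAAT matches and the Rrm1 promoter CCAAT alone. A CHR match was found in 23 of 28 mitotic promoters (82.1%), in 3 of 13 S phase promoters (23.1%) and in 19.4% of the promoters of 27025 genes. CCAAT was found in 82.1%, 69.2% and 37.9%, respectively, and both motifs together in 75.0%, 23.1% and 7.70%. E2F matches were found in 1 of 28 mitotic promoters (3.57%, Cdk1), 5 of 13 S phase promoters (38.5%, Cdc6, Mcm3, Mcm5, Mcm6 and Mcm7) and 1.91% of all promoters. In 21 of the 23 mitotic promoters with CHR, a match lay within 50 bases of the start. A match describes the letters of a window and not a bound site. Among mitotic genes, the 23 with a CHR match had a median stomach-intestine difference of 0.68 and the 5 without one (Birc5, Cenpe, Mad2l1, Nek2 and Nusap1) a median of 0.67.

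**Figure D1:**
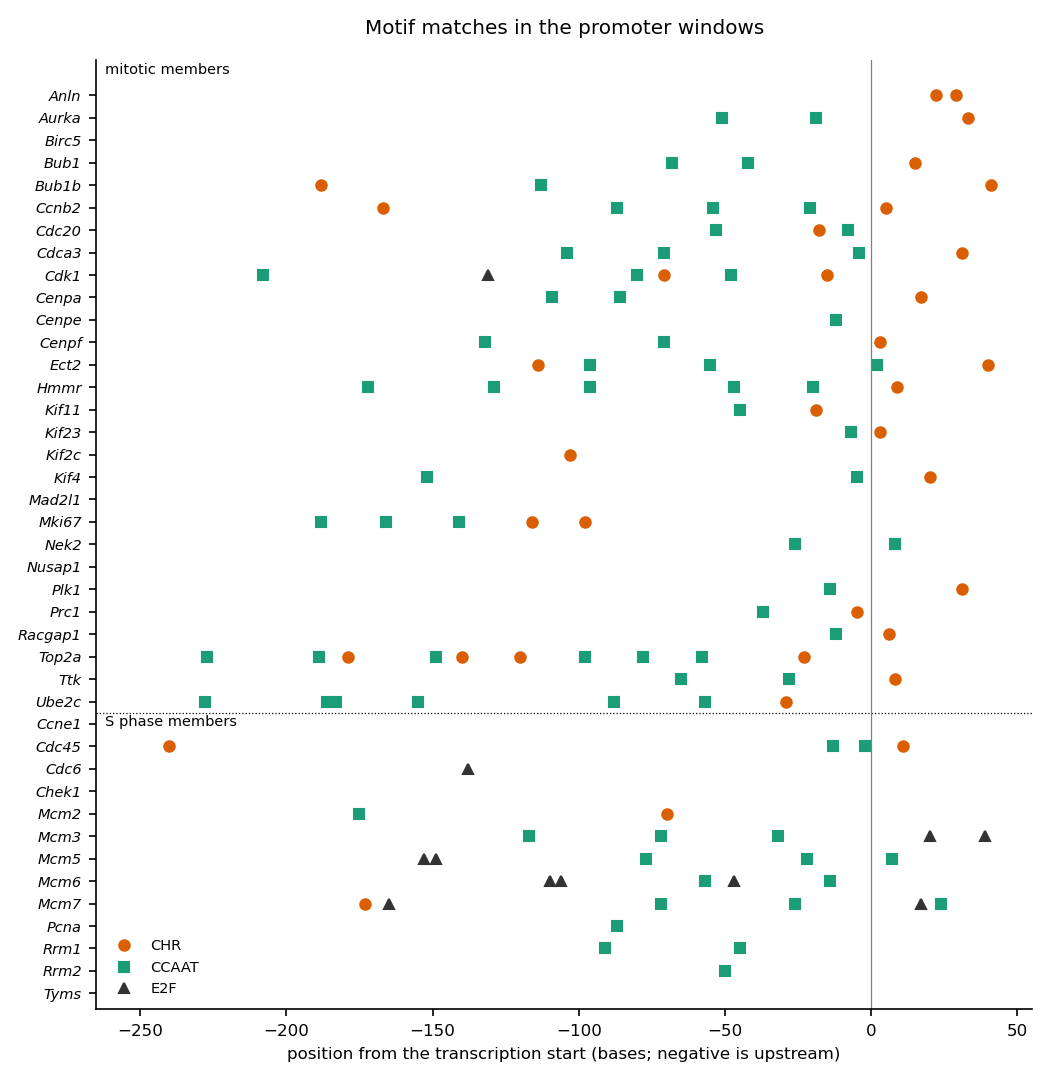
Position of each motif match in the promoter windows of 28 mitotic and 13 S phase members, in bases from the annotated transcription start (negative is upstream), with CHR as circles, CCAAT as squares and E2F as triangles. CHR circles gather around the start in the upper block, where the median position over all matches is -1, and E2F triangles lie mainly in the lower block.

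The comparison of stomach with intestine asks how the control cultures of the 2 organs differed. All 32 mitotic members rose in stomach, by 0.28 to 0.86 on the log2 scale with a median of 0.68 (1.60-fold), against a median of 0.02 over all genes. The share of all genes called higher at an adjusted p under 0.05 was 8.86%, and 8.09% were called lower. On all 32 genes both stomach arrays read above both intestine arrays, which held for 34.5% of all genes. It also held for 9 of the 16 S phase members. On 3 others both stomach arrays read below both intestine arrays, as for 3670 of all 12393 genes. Of the 16 S phase members, 4 rose (Mcm7, Cdc45, Gins1 and Chek1), 1 fell (Ccne1), and the median difference was 0.09. In RNA from a whole culture, fewer dividing cells and less of these transcripts per cell cannot be told apart.

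Kif2c, a kinesin that takes microtubules apart at their ends, had the widest gap. It read 9.96 and 9.93 in stomach, 9.67 and 9.75 in Barx1 intestine and 9.10 and 9.06 in intestine, so that its groups were fully separate. The stomach exceeded the intestine by 0.86 (SE 0.06, 95% interval 0.71 to 1.01, 1.82-fold, adjusted p = 0.00261 by limma). The other motors of the spindle and midzone, Kif11, Kif20a, Kif23 and Kif4, rose by 0.80, 0.77, 0.62 and 0.64. For Kif11, the stomach arrays gave 8.64 and 8.60 against 7.76 and 7.88 in intestine. Prc1, which bundles microtubules between the separating chromosomes, read 10.76 and 10.78 against 10.00 and 10.07 (difference 0.74, SE 0.06, adjusted p = 0.00359). The spindle assembly genes Tpx2 (0.53), Nusap1 (0.69) and Hmmr (0.57) also rose, which makes 9 of 9 kinesin and spindle members.

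Among the cyclins and the machinery that activates or destroys them, Ccna2 rose most and Cdk1 least. Ccna2, the cyclin A gene of S phase and early mitosis, read 11.23 and 11.25 in stomach, 10.77 and 10.80 in Barx1 intestine and 10.40 and 10.46 in intestine, and the stomach excess was 0.81 (SE 0.06, adjusted p = 0.00261). Cdk1 read 11.44 and 11.45, 11.36 and 11.42, and 11.15 and 11.19 in the same order, an excess of 0.28 (SE 0.06, adjusted p = 0.0298). The groups of Cdk1 were separate but narrow, and its gap was the smallest of the 32. Ccnb2, a cyclin B gene and the only one of the pair measured, rose by 0.72 (10.34 and 10.38 against 9.69 and 9.59). Cdc20 rose by 0.63, its ubiquitin partner Ube2c by 0.51, and Cdca3, a trigger of mitotic entry through degradation of Wee1, by 0.65.

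All 8 kinases and spindle checkpoint members rose. Plk1, a kinase of mitotic entry and spindle assembly, read 9.56 and 9.47 in stomach, 9.13 and 9.25 in Barx1 intestine and 8.80 and 8.76 in intestine (stomach excess 0.74, SE 0.07, adjusted p = 0.00462). Bub1, a checkpoint kinase at the kinetochore, read 10.98 and 10.98, 10.72 and 10.76, and 10.19 and 10.34 (0.71, SE 0.07). Its relatives in the checkpoint rose by similar amounts, with Bub1b at 0.68, Ttk at 0.61 and Mad2l1 at 0.55, and the centrosomal kinase gene Nek2 rose by 0.73. The Aurora kinase genes differed less. Aurkb, the kinase of the chromosomal passenger complex, rose by 0.54, and Aurka, the spindle pole kinase, by 0.36 (9.68 and 9.56 in stomach against 9.34 and 9.19 in intestine, adjusted p = 0.0354).

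Centromere and passenger genes rose in 4 of 4 measured cases. Cenpf, a kinetochore protein that accumulates before mitosis, read 9.65 and 9.58 in stomach, 9.08 and 9.11 in Barx1 intestine and 8.75 and 8.83 in intestine (0.82, SE 0.06, adjusted p = 0.00334). Cenpa, the histone variant that marks centromeres, rose by 0.64, Cenpe, a kinetochore motor, by 0.60, and Birc5 (survivin, a passenger subunit) by 0.67. Of the cytokinesis genes, Anln, which scaffolds the contractile ring, read 12.02 and 12.08 in stomach, 11.76 and 11.72 in Barx1 intestine and 11.17 and 11.30 in intestine (0.81, SE 0.07, adjusted p = 0.00397). Ect2, the exchange factor that activates RhoA at the cleavage furrow, rose by 0.74, and its partner Racgap1 by 0.71. Mki67, a proliferation marker that coats mitotic chromosomes, rose by 0.71 (11.50 and 11.53 against 10.77 and 10.85), and Top2a, which untangles sister DNA, by 0.58 (11.59 and 11.62 against 11.01 and 11.03).

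**Figure D2:**
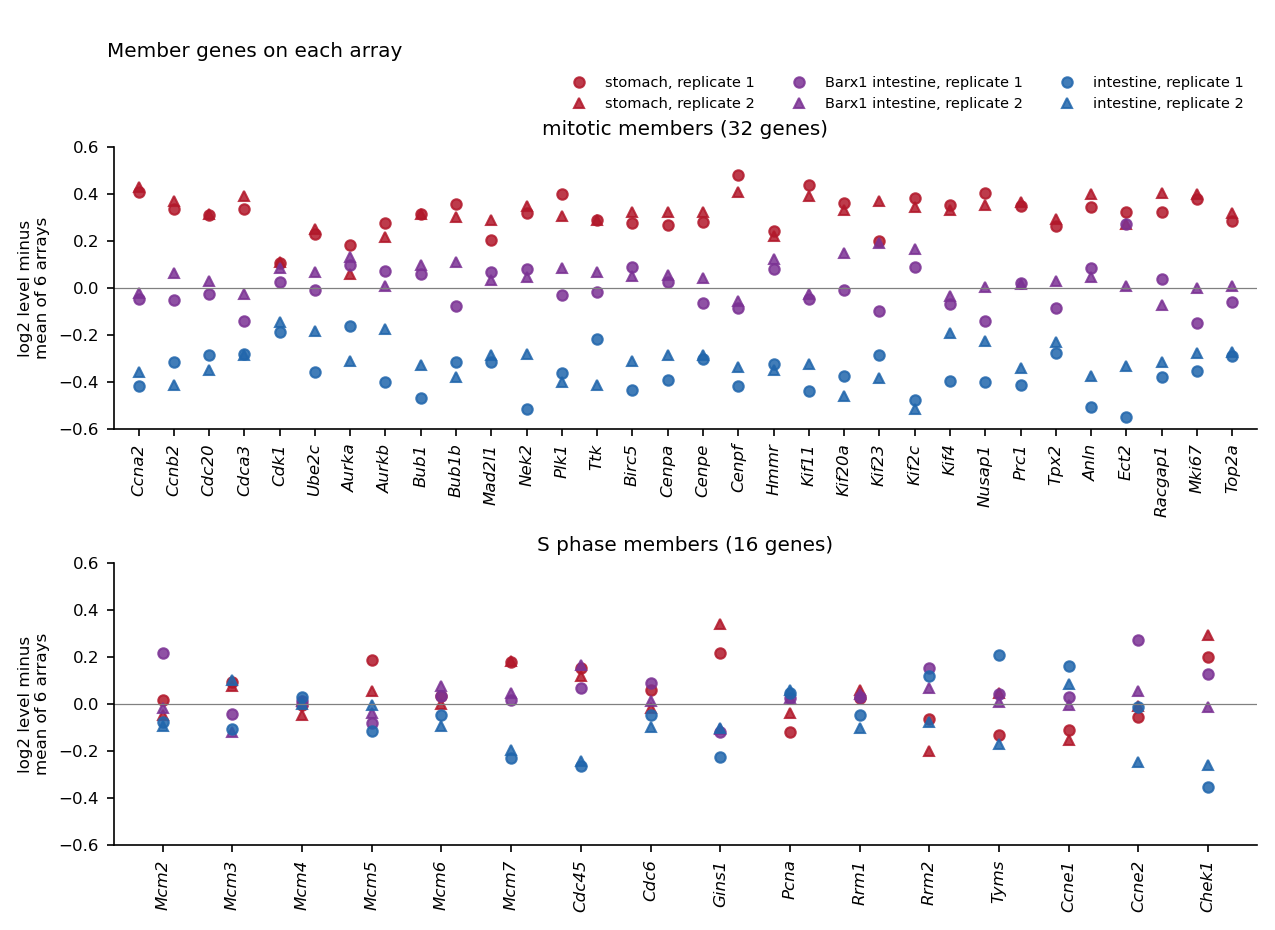
Log2 level of each measured member on each array, minus the mean of its 6 arrays, for 32 mitotic (upper) and 16 S phase members (lower); colours mark the group and symbols the replicate. Red stomach points lie above blue intestine points on every mitotic gene with purple Barx1 intestine points mostly between. On S phase genes the differences are mostly smaller, and red lies fully above blue on 9 of 16 and fully below on 3.

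Most of the S phase genes did not pass the test, though the share called (31.25%) exceeded that of all genes (16.9%). Of the 6 Mcm subunits, Mcm7 rose (12.12 and 12.12 in stomach, 11.96 and 11.99 in Barx1 intestine, 11.71 and 11.74 in intestine, stomach excess 0.40, SE 0.05, adjusted p = 0.0107). The other subunits had values of 0.07 for Mcm2, 0.09 for Mcm3, -0.04 for Mcm4, 0.18 for Mcm5 and 0.09 for Mcm6. For Mcm4, the arrays of all groups lay between 11.04 and 11.11, and the 95% interval of its stomach-intestine difference ran from -0.18 to 0.10. Pcna, the sliding clamp, read 12.72 and 12.80 in stomach against 12.89 and 12.90 in intestine, a difference of -0.13 (95% interval -0.28 to 0.01, adjusted p = 0.177). These intervals lie below the median mitotic difference of 0.68, so a gap of that size was not seen for Mcm4 or Pcna.

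Among origin factors, Cdc45, which completes the active helicase, read 8.31 and 8.28 in stomach, 8.22 and 8.32 in Barx1 intestine and 7.89 and 7.91 in intestine (stomach excess 0.39, SE 0.06, adjusted p = 0.0147). Gins1, its partner in that helicase, read 9.08 and 9.20, 8.74 and 8.75, and 8.63 and 8.75 (0.44, SE 0.07, adjusted p = 0.0172), so that for this gene the Barx1 intestine lay with the intestine. Cdc6, the loader of the helicase, had a difference of 0.09 (adjusted p = 0.365). For nucleotide supply, the ribonucleotide reductase genes Rrm1 and Rrm2 had differences of 0.12 (95% interval -0.02 to 0.26) and -0.15 (-0.38 to 0.08), and Tyms one of -0.06. Chek1, the kinase of the replication checkpoint, rose by 0.55 (8.90 and 8.99 against 8.34 and 8.44, SE 0.08, adjusted p = 0.0113). Ccne1, a cyclin E gene that starts S phase, was the member that fell, from 9.84 and 9.77 in intestine to 9.57 and 9.53 in stomach (-0.25, SE 0.06, adjusted p = 0.0420). Ccne2, the other cyclin E gene, had a value of 0.10 (adjusted p = 0.582) with overlapping arrays.

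Of the 89 probe sets that carry the names of the 48 members, 55 belong to mitotic genes, and all 55 had a positive stomach-intestine difference. The 3 probe sets of Cdc20 gave 0.63, 0.62 and 0.54 and the 4 of Hmmr gave 0.57, 0.73, 0.59 and 0.66. For Kif2c the faint sets, with means of 5.87 and 4.51, gave 0.04 and 0.11 beside 0.86 and 0.71 for the brighter ones, whereas the faint sets of Bub1 (mean 5.84) and Kif11 (mean 5.75) gave 0.78 and 0.64. Among S phase genes 26 of 34 probe sets were positive. The 4 sets of Mcm7 gave 0.40 to 0.53, the 3 of Rrm2 gave -0.13 to -0.15, and those of Mcm4 disagreed in sign (-0.04 and 0.10), as did those of Mcm3 (-0.05 to 0.33).

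The counts rest on both stomach arrays. Without stomach replicate 1, 20 mitotic members passed in the comparison with intestine, and without stomach replicate 2, 12 did, when the lone stomach array is assumed to vary like the others. The S phase calls fell from 5 to 0 without either stomach array, and Ccne1 was lost in all 6 such fits. The 12 members called in all 6 fits that left out 1 array were Ccna2, Cdc20, Cenpf, Kif11, Kif20a, Kif2c, Bub1, Plk1, Prc1, Hmmr, Anln and Racgap1.

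Marker genes of other cell types and of mesenchyme varied between the cultures beside this difference. The mean log2 level of 18 macrophage and leukocyte markers was 8.14 and 7.85 in stomach, 6.87 and 7.69 in Barx1 intestine and 8.51 and 9.39 in intestine. For 21 endoderm epithelium markers it was 6.41 and 6.97, 7.21 and 6.69, and 8.13 and 7.29. In the comparison of stomach with intestine, 1 of 18 macrophage markers (Itgam) and 2 of 21 epithelial markers (Spint1 and Foxa1) were called lower and 0 higher. Of 12 fibroblast and mesenchyme markers 6 were called higher, among them Col1a2 (difference 1.98) and Pdgfra (1.63), and 1 lower (Foxf2, -1.40). Of 12 smooth muscle markers 4 were called higher and 2 lower, of 14 endothelial markers 1 higher and 4 lower, of 13 enteric neural crest markers 1 higher and 3 lower, of 6 mesothelial markers 2 higher and 1 lower, and of 7 erythroid markers 0. The macrophage marker Csf1r and the epithelial marker Cdh1 were above the array medians on all arrays (8.87 to 11.42 and 7.32 to 10.47), while the epithelial marker Foxa3 stayed at 3.69 to 3.73. In the macrophage and epithelial lists the intestine arrays lay above all others, though apart from each other. The mean mitotic deviation of these intestine arrays from the average array was -0.36 and -0.32. The part of these cells in the result was not tested.

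The comparison of Barx1 intestine with control intestine asks how intestinal cultures made to express Barx1 differed from the controls. Barx1 intestine carried both the Rosa26 and the Bapx1 allele, and each control an allele without its partner. An effect of Barx1 and an effect of the alleles themselves cannot be told apart here. All 32 mitotic members had a positive difference, from 0.20 to 0.62 with a median of 0.35 (1.28-fold), and 11 rose: Ccna2, Cenpa, Kif20a, Kif2c, Bub1, Birc5, Plk1, Mad2l1, Prc1, Hmmr and Anln. The background was 1.86% of all genes called higher and 2.12% called lower, with a median over all genes of 0.02. On all 32 genes both Barx1 intestine arrays read above both intestine arrays, which held for 30.1% of all genes. It also held for 8 of the 16 S phase members. On 2 others both Barx1 intestine arrays read below both intestine arrays, as for 2772 of all 12393 genes. Of the S phase members 1 rose (Cdc45), none fell, and the median was 0.10. At an unadjusted p under 0.05, all 32 mitotic and 4 S phase members were higher and 0 lower, beside 1526 genes higher in all. The intestine arrays are the same as in the comparison with stomach, so the values of both comparisons are set side by side and their likeness is not a result.

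The largest difference was again that of Kif2c (0.62, SE 0.06, 95% interval 0.47 to 0.77, 1.54-fold, adjusted p = 0.0143 by limma), beside 0.86 in stomach. Read from its second brightest probe set, after leaving out the kinds of set that can match several transcripts, Kif2c had 0.44 and did not pass. Anln rose by 0.51 (adjusted p = 0.0277) beside 0.81, Kif20a by 0.49 (adjusted p = 0.0374) beside 0.77, Bub1 by 0.48 (adjusted p = 0.0308) beside 0.71, and Birc5 by 0.44 (adjusted p = 0.0348) beside 0.67. Hmmr, a spindle protein, rose by 0.44 (10.10 and 10.14 against 9.70 and 9.67 in intestine, SE 0.06, adjusted p = 0.0230), beside 0.57 in stomach. The other probe sets of Hmmr gave 0.38, 0.45 and 0.38, beside 0.73, 0.59 and 0.66 in stomach. Ect2 had a value of 0.58 that did not pass the test (9.79 and 9.52 against 8.96 and 9.18, SE 0.12, adjusted p = 0.0581). Mki67, with 10.97 and 11.12 against 10.77 and 10.85, had a value of 0.24 (adjusted p = 0.129), and Top2a, with 11.24 and 11.31 against 11.01 and 11.03, one of 0.25 (adjusted p = 0.0721). Several others lay just outside the threshold, among them Cdc20 (0.32, adjusted p = 0.0502), Kif11 (0.34, adjusted p = 0.0513) and Ccnb2 (0.37, adjusted p = 0.0516).

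Among S phase genes, Cdc45 rose by 0.37 (8.22 and 8.32 against 7.89 and 7.91, SE 0.06, adjusted p = 0.0417), beside 0.39 in stomach. Chek1 (0.37, adjusted p = 0.0652) and Mcm7 (0.25, adjusted p = 0.0690) came next without passing. Ccne2 had 0.29 with replicates at 10.11 and 9.89, and Mcm2 had 0.18 with replicates at 10.55 and 10.32. The remaining values ran from -0.11 for Ccne1 to 0.13 for Cdc6, with Pcna at -0.03 and Mcm4 and Mcm5 at -0.0038 and -0.0007. In this comparison 8 of 18 macrophage markers were called lower, beside 2.12% of all genes, and the list median was -1.83. Also called lower were 1 of 21 epithelial markers (Spint1, list median -0.71) and 4 of 13 markers of the enteric neural crest (list median -0.26). Their part in the mitotic difference was not tested. The 11 mitotic calls fell to between 0 and 2 whichever of the 6 arrays was left out, and Cdc45 was lost each time.

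**Figure D3:**
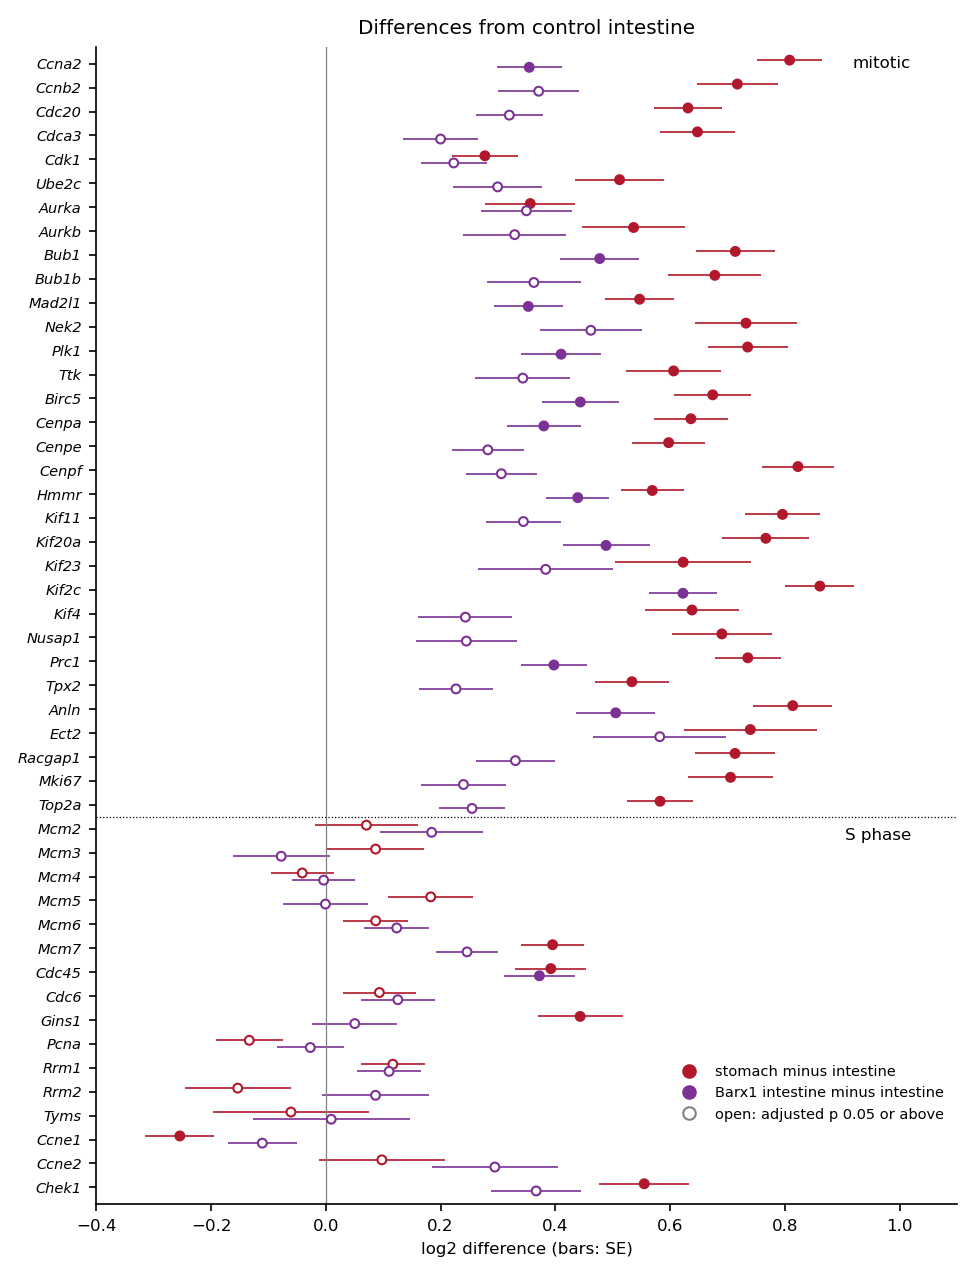
Log2 difference of stomach (red) and of Barx1 intestine (purple) from control intestine for each member, with bars of 1 SE from the limma fit of 6 arrays and open symbols where the adjusted p was 0.05 or above. Mitotic differences run from 0.28 to 0.86 in stomach and from 0.20 to 0.62 in Barx1 intestine, and most S phase symbols are open and near 0.

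Set directly against stomach, the Barx1 intestine was lower on the mitotic genes. The differences of the 32 genes ran from -0.52 to -0.01 with a median of -0.31 (all genes -0.0008), and 9 fell: Ccna2, Cdc20, Cenpf, Kif11, Mki67, Top2a, Prc1, Racgap1 and Cdca3. The background was 2.64% of genes called lower and 2.56% called higher. Arrays did not overlap, with Barx1 intestine lower, on 31 of the 32 genes, on 5 of the 16 S phase members and on 28.5% of all genes. With Barx1 intestine higher, they did not overlap on 5 S phase members and on 3654 of all 12393 genes. Of the S phase members 1 fell (Gins1, -0.39, SE 0.07, adjusted p = 0.0475), none rose, and the median was 0.03.

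Cenpf had the widest gap (9.08 and 9.11 in Barx1 intestine against 9.65 and 9.58 in stomach, difference -0.52, SE 0.06, adjusted p = 0.0189). Its second probe set, with a mean of 5.15, gave 0.05. Mki67 fell by 0.47 on the log2 scale (adjusted p = 0.0337), Ccna2 by 0.45 (adjusted p = 0.0204), Kif11 by 0.45 (adjusted p = 0.0271) and Cdca3 by 0.45 (adjusted p = 0.0289). At the other end, Aurka read 9.60 and 9.63 in Barx1 intestine and 9.68 and 9.56 in stomach (-0.01, 95% interval -0.20 to 0.19), the mitotic gene whose arrays overlapped. Cdk1 (-0.05) and Hmmr (-0.13) were also close, though the other probe sets of Hmmr gave -0.36, -0.14 and -0.28. The S phase gene Rrm2, at 12.81 and 12.72 in Barx1 intestine against 12.59 and 12.46, had a value of 0.24 that did not pass (adjusted p = 0.194). The 9 mitotic calls fell to 0 without either stomach array or either Barx1 intestine array, and to 8 without either intestine array.

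Ordered by group means, 32 of 32 mitotic members ran from stomach through Barx1 intestine to intestine, an order seen in 24.9% of all genes and in 5 of 16 S phase members. With every array in that order, the counts were 31 of 32 mitotic (Aurka being the other), 2 of 16 S phase and 7.86% of all genes. Stomach and Barx1 intestine differed beyond the adjusted threshold for 9 of these genes, and Barx1 intestine and intestine for 11. At an unadjusted p under 0.05 by limma the counts were 26 and 32 of 32, beside 3000 and 2924 of all 12393 genes. Taken as a percentage of the stomach-intestine gap, the excess of Barx1 intestine over intestine had a median of 56.2% over the 32 genes, with the same intestine arrays in both terms. It was smallest for Cdca3 (30.9%) and largest for Aurka (98.1%). The 11 S phase genes outside this order split among 4 other orders, with 4 highest in Barx1 intestine and lowest in intestine, 3 highest in intestine and lowest in stomach, 2 highest in Barx1 intestine and lowest in stomach, and 2 highest in stomach and lowest in Barx1 intestine.

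Averaged over genes, with each gene set to the mean of its 6 arrays, the mitotic members stood at 0.31 and 0.32 in stomach, 0.00 and 0.05 in Barx1 intestine and -0.36 and -0.32 in intestine. The S phase members stood at 0.04 and 0.04, 0.05 and 0.01, and -0.06 and -0.09. Both classes were lowest in intestine, and the range over arrays was far wider for the mitotic class. The S phase mean minus the mitotic mean was -0.27 and -0.28 on the stomach arrays, 0.06 and -0.03 on those of Barx1 intestine and 0.30 and 0.22 on those of intestine. Between groups, the S phase mean difference lay below the mitotic one by 0.54 for stomach against intestine (value -0.54) and by 0.25 for Barx1 intestine against intestine (value -0.25), and above it by 0.29 for Barx1 intestine against stomach. Without the cyclins of mixed timing, Ccna2, Ccne1 and Ccne2, these values were -0.51, -0.25 and 0.26. The gap is given as a description with no test, since the members were chosen with results of these data known.

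**Figure D4:**
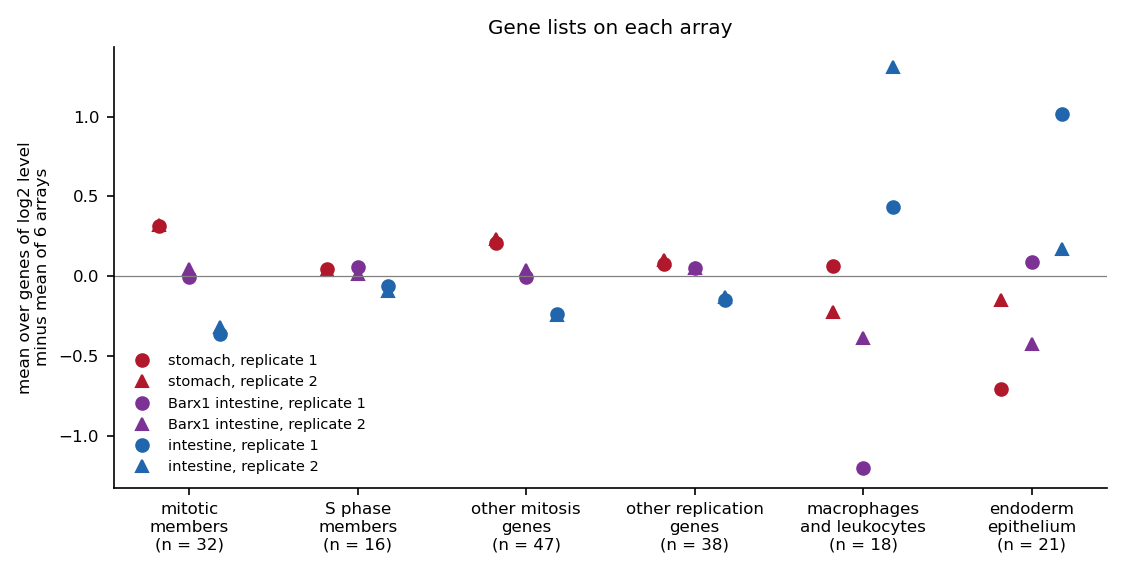
Mean over the genes of each list of the log2 level minus the mean of 6 arrays, 1 point per array, with colour for the group and symbol for the replicate; n is the number of genes. The mitotic lists keep stomach above Barx1 intestine above intestine with close replicates. The macrophage and epithelium markers are spread widely within groups, and in both of these lists the intestine arrays lie above all others.

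Other genes of the cell cycle were counted from lists of the same pathways. Of 47 other mitosis genes, 33 rose in stomach over intestine and 0 fell (median 0.54), and 14 rose in Barx1 intestine and 0 fell (median 0.26). Of all genes, 8.86% were called higher and 8.09% lower in stomach, and 1.86% higher and 2.12% lower in Barx1 intestine. Cdc25b, the phosphatase that activates Cdk1, read 7.99 and 7.91 in stomach, 7.22 and 7.34 in Barx1 intestine and 6.88 and 6.92 in intestine, differences from intestine of 1.05 (adjusted p = 0.00233) and 0.38 (adjusted p = 0.0492). Ska1, a kinetochore coupler, had 0.80 and 0.54, Melk, a mitotic kinase, 0.67 and 0.44, Smc4, a condensin subunit, 0.71 and 0.43, and Wee1, the kinase that restrains Cdk1, 0.66 and 0.51, each past the threshold in both comparisons. Cenpm, a centromere protein, rose in stomach (0.67) and had 0.02 in Barx1 intestine, which lay below stomach (-0.66, adjusted p = 0.0158).

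Of 38 other replication genes, 16 rose in stomach and 0 fell (median 0.23), beside 8.86% and 8.09% of all genes. In Barx1 intestine 2 rose (list median 0.20), beside 1.86% of all genes. Those 2 were Tk1, thymidine kinase (9.74 and 9.76 in stomach, 9.67 and 9.70 in Barx1 intestine, 9.04 and 9.13 in intestine, differences of 0.66 and 0.60), and Timeless, a fork protection protein (0.64 and 0.33). Dbf4, the activator of the origin kinase, rose in stomach by 0.57 and Rfc4, a clamp loader subunit, by 0.52. The replication genes outside the S phase members thus included more that rose in stomach than the members did (16 of 38 against 4 of 16), a difference between lists that was not tested.

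Among regulators of these classes, 2 of 6 MuvB, B-Myb and FoxM1 genes were called higher in stomach than in intestine, beside 8.86% of all genes. Mybl2, the gene of B-Myb, rose in stomach (7.26 and 7.12 against 6.46 and 6.63, difference 0.64, adjusted p = 0.0107), as did the MuvB subunit gene Lin9 (0.46, adjusted p = 0.0294). Foxm1 had 0.47 (7.37 and 7.41 against 6.79 and 7.05, adjusted p = 0.0538) and E2f1 0.13 (adjusted p = 0.270). In Barx1 intestine none of the 6 MuvB, B-Myb and FoxM1 genes passed by limma (3 at an unadjusted p under 0.05), with values of 0.42 for Mybl2 and 0.34 for Foxm1. Of 10 Rb and E2F family genes none passed in any of the 3 comparisons by limma, and 0, 2 and 3 had an unadjusted p under 0.05 (stomach against intestine, Barx1 intestine against intestine, Barx1 intestine against stomach). Of 9 G1 cyclins and their kinases 1 rose in stomach (Ccnh, 0.32) and 1 in Barx1 intestine, the cyclin D gene Ccnd1 (11.17 and 11.16 against 10.65 and 10.55 in intestine, difference 0.57, adjusted p = 0.0230). These counts stand beside 8.86% and 1.86% of all genes called higher. For Ccnh the faintest probe set gave -0.05.

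Inhibitors of the cycle went both ways. Cdkn1a, an inhibitor of cyclin-dependent kinases and a target of p53, read 12.47 and 12.34 in stomach, 12.91 and 12.95 in Barx1 intestine and 13.12 and 13.07 in intestine. It fell by 0.69 on the log2 scale in stomach against intestine (adjusted p = 0.00464), and Barx1 intestine exceeded stomach by 0.52 (adjusted p = 0.0220). Cdkn1c, a related inhibitor of embryonic tissues, fell in stomach as well (-0.80, adjusted p = 0.0123), while Cdkn1b (0.74), Cdkn2c (0.59) and Cdkn2d (0.43) rose. In the p53 and growth arrest list 5 of 15 genes fell and 2 rose in stomach (median -0.26), beside 8.09% and 8.86% of all genes. Mdm2, the p53 target that degrades p53, fell by 0.68 on the log2 scale, Gas6, a secreted ligand, by 1.32, and the growth arrest genes Gas1 (1.33) and Gas2 (0.96) rose. In Barx1 intestine against intestine, 0 of 7 inhibitors and 0 of 15 p53 and arrest genes passed by limma (3 and 1 at an unadjusted p under 0.05), with Cdkn1a at -0.17. Mycn, a Myc family gene of growth and proliferation, fell in Barx1 intestine (7.42 and 7.53 against 8.30 and 8.43, difference -0.89, adjusted p = 0.0105), though its faintest probe set gave 0.03, and in stomach it had -0.17. Of the other Myc family and growth genes, Mxi1, an antagonist of Myc, fell in stomach (-0.34, adjusted p = 0.0332). In each of these comparisons that was 1 of 11 genes of the list (9.09%), beside 8.09% of all genes called lower in stomach and 2.12% in Barx1 intestine.

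**Figure D5:**
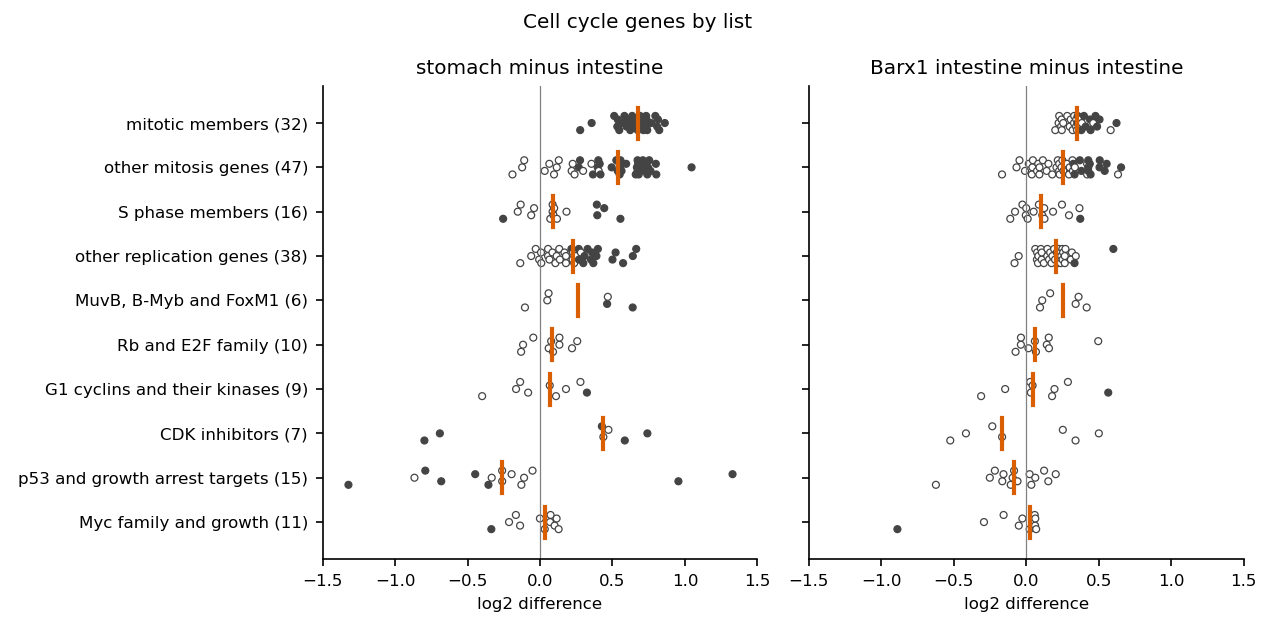
Log2 difference of each gene from control intestine by list (number of measured genes in brackets), for stomach (left) and Barx1 intestine (right); filled points passed an adjusted p under 0.05 and the orange bar is the list median. The mitotic lists sit to the right of 0 in both panels, with medians of 0.68 and 0.54 in stomach and 0.35 and 0.26 in Barx1 intestine.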

How the data were processed

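Affymetrix arrays were compared, 2 for each of 3 groups and 6 in all, assigned from the labels. The authors deposited log2 values per probe set, made with RMA per the submitters' processing notes; its version is not given in the sources used here, and the log2 scale was read from the values. RMA usually brings arrays to a common distribution, which removes a shift shared by most genes. Of 22690 probe sets, 20393 named 1 gene in the platform annotation, 691 several and 1606 none; those with 1 gene were used, apart from array controls, which left 20380. Each of 12393 genes was read from its probe set with the highest mean; 20351 of those used were found by identifier among the RefSeq genes, with 0 changes of symbol.

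All 6 arrays entered a single limma fit (version 3.58.1, lmFit and eBayes, R 4.3.3; files read by data.table, version 1.17.8) of 3 group means, with 3 residual and 2.58 prior degrees of freedom. Adjusted p-values are Benjamini-Hochberg values over all genes within a comparison, with a threshold of 0.05. SE and intervals are those of the moderated fit. The members, lists and tests were chosen with earlier results of these data known. Named besides the members are Barx1, up to 4 genes of each related list with the smallest p in a comparison among those past the threshold, and Foxm1, Mybl2, E2f1, Ccnd1, Cdkn1a and Cdkn1c. Marker genes of other cell types are named as examples chosen after their values were seen.

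On data simulated for stomach against intestine (12393 genes, 200 changed, 3 simulations), 38% of the changes of 0.5 (log2) and 85.3% of the changes of 1 were found again, and 4.64% of calls were false. The simulated noise was independent between genes, with spreads drawn from the limma fit, and all changes were upward in stomach. The rates on the real arrays, where genes can vary together, may differ. Alternatives covered probe set choice, dim genes, scaling, variance trend, thresholds, replicate block and leaving out arrays.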

Additional observations from a re-analysis of the deposited data

How the results depend on the processing

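In the 3 comparisons, the direction of the S phase mean minus the mitotic mean, and of each called member but Cenpf, held under every alternative run. With the faintest probe set of each gene, Cenpf gave 0.0524 for Barx1 intestine against stomach, Ccnh -0.0522 for stomach against intestine and Mycn 0.0296 for Barx1 intestine against intestine. In this setting the counts of all genes called were 1396 for stomach against intestine and 346 for Barx1 intestine against stomach. The mitotic counts were 23 for stomach against intestine, 5 for Barx1 intestine against intestine and 1 for Barx1 intestine against stomach. In the same order, the S phase counts were 3, 0 and 0, and the S phase minus mitotic values -0.41, -0.18 and 0.23. The cause was not tested. Averaging all probe sets gave -0.48 for the first of these values and 5 mitotic genes for Barx1 intestine against stomach. Medians in place of means gave -0.59 for stomach against intestine and 0.34 for Barx1 intestine against stomach.

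At an adjusted p under 0.01, stomach against intestine called 512 genes with 25 mitotic and 0 of S phase. Barx1 intestine against intestine called 40 with 0 mitotic and 0 of S phase, and Barx1 intestine against stomach 11 with 0 and 0. At 0.10 the totals were 3310, 1316 and 1516, with 25 mitotic and 3 S phase genes in the second comparison and 20 mitotic genes in the third. With a log2 size of at least 0.5, stomach against intestine called 962 genes with 30 mitotic and 1 of S phase. The second comparison called 2 mitotic and 0 S phase genes, and the third 385 genes with 1 mitotic and 0 of S phase. Leaving out dim genes called 896 genes with 24 mitotic and 3 of S phase in the second comparison, and 1216 with 19 mitotic in the third. A variance trend gave 1037, 24 and 3, and 1189, 20 and 2. Centring each array on its median gave 19 mitotic genes for Barx1 intestine against intestine, and fitting its 4 arrays alone 50 genes with 0 mitotic and 0 of S phase.

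Leaving out 1 array gave, for stomach against intestine, 281 to 1692 genes, 12 to 31 mitotic and 0 to 4 of S phase, with a gap of -0.58 to -0.50. Barx1 intestine against intestine gave 50 to 466, 0 to 2 and 0 (gap -0.30 to -0.21), and Barx1 intestine against stomach 0 to 727, 0 to 8 and 0 to 1 (gap 0.24 to 0.33). These fits have fewer samples, and where 1 array of a group is left it is assumed to vary like the others.

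The sample titles give replicate numbers, and whether same-numbered samples were made together is not known here. The correlation of same-numbered deviations was -0.216 for stomach and intestine, -0.062 for stomach and Barx1 intestine and 0.203 for intestine and Barx1 intestine. With the replicate number as a block, stomach against intestine called 1508 genes, 30 mitotic and 4 of S phase, Barx1 intestine against intestine 267, 1 and 0, and Barx1 intestine against stomach 337, 3 and 0. Exchanging the numbers of the stomach arrays, an alternative chosen after seeing the data, gave 1879, 30 and 4, then 570, 7 and 0, then 383, 5 and 0. Leaving out probe sets that can read several transcripts, also added later, kept 47 of the 48 members.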
